A study of Mus musculus with 4 samples.

Results

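Transcripts of 10 heat shock chaperone genes were followed across the cell types of mouse islets after cytokine exposure. The genes were the rows named Hspa1a, Hspa1b, Hsph1, Dnajb1, Dnaja1, Hspb1, Hspe1, Hspd1, Hsp90aa1 and Hspa8 among the 31053 genes of the count matrices. Their transcripts were most abundant in δ-like cells that had received both cytokines, where the 10 genes summed to 8603 unique molecular identifiers (UMIs) per 1000000, against 2821 in untreated δ-like cells. In β-like cells the sum was 1784 without cytokine and 4278 with both. Macrophage-like cells stayed between 2184 and 2594 in the 4 libraries, and held almost no Hspa1a.

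Islets of C57BL/6 mice were kept without cytokine or given IL-1β alone, IFN-γ alone or both for 6 h outside the animal, then dissociated for 3′ single-cell sequencing. The study's methods describe adult male mice whose islets were pooled before they were divided among the conditions, so the 4 libraries share their animals and hold no genetic modification that the labels name. Each condition was 1 library, so no test between conditions was possible, no p-value is given, and every interval below covers counting error only. The library without cytokine held 3486 barcodes, that with IL-1β 2911, that with IFN-γ 3694 and that with both 2480, of which 1521, 2018, 2122 and 1810 passed the limits of 200 to 4000 genes and at most 12% mitochondrial UMIs. Median depth per kept cell was 15454, 7462.5, 9615 and 11123.5 UMIs in the same order, so the IL-1β library was the shallowest. The upper gene limit removed 843 untreated barcodes but 146, 345 and 222 in the treated libraries. At most 2 kept barcodes were shared between any pair of libraries.

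Cell classes were set by hormone and marker genes, with a rule chosen after the data had been seen that used none of the 10 chaperone genes. A cell was endocrine where hormone transcripts made up at least 2% of its UMIs, and took the name of 1 hormone where that hormone gave at least 80% of them, with Ppy UMIs counted beside Sst for δ-like cells. There were 4980 β-like, 848 α-like, 484 δ-like and 167 Ppy-led cells, the last named by their leading gene because only 2 markers of pancreatic polypeptide cells were used. Non-endocrine cells held at least 3 markers of their type, and gave 136 macrophage-like, 130 endothelial-like, 62 ductal-like, 57 mesenchymal-like and 49 acinar-like cells. Ins1 and Ins2 had UMIs in 100% of β-like cells, Gcg in 100% of α-like cells and Sst in 100% of δ-like cells. Pecam1 was in 91% of endothelial-like cells and C1qb in 99% of macrophage-like cells. These hormones and markers were part of the rule, so their shares describe the classes and do not check their names. Mafa, which is not a hormone, was in 57% of β-like cells. Some listed markers were rare, such as Cftr in 5% of ductal-like and Pdgfra in 4% of mesenchymal-like cells. The other 558 kept cells, most of them with a mixture of hormones, are in no class.

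Heat shock proteins are chaperones that hold unfolded proteins in solution and help them fold. Under proteotoxic stress, heat shock factor 1 (HSF1) forms trimers that bind repeated GAA units, the heat shock element, and raise transcription of Hspa1a, Hspa1b and their partners, while Hspa8 and Hspd1 are made by unstressed cells as well. HSP70 proteins work in a cycle with J-domain proteins, which deliver clients, and nucleotide exchange factors, which release them. In islets, inducible HSP70 is known as a product of cells exposed to IL-1β and nitric oxide.

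Units of the heat shock element are shown here in promoters that hold them, because the genes differed widely in level. Most of the genes with a promoter window held a pair of units, and fewer held a run of 3. RefSeq windows of the mouse genome (GRCm38.p6) from 250 bases before to 50 bases after a transcription start were found for 8 of the 10 genes, 13 windows in all, and none was matched for Hspa8 or Hsp90aa1. Facing pairs of units, written GAANNTTC or TTCNNGAA and read on both strands, were in 8 of the 13 windows, from 7 of the 8 genes, and in 15.1% of all 32851 windows. Runs of 3 units, GAANNTTCNNGAA or TTCNNGAANNTTC, which contain such pairs, were in 4 of the 13 windows, from Hspd1, Hspe1 and Hsph1, and in 0.603% of all windows. Neither pattern was in the Dnajb1 windows, which says only that these letters are not in them. In each stretch, 5′ to 3′ on the gene's strand, the capitals mark 1 run of units. The Hspb1 stretch holds another pair, gaaccttc, 90 to 97 bases before the start, and in Hsph1 the capitals mark a pair 47 to 54 bases before the start, while the run of 3 units lies after the start and is not shown. Hspe1 and Hspd1 lie head to head, so that the first stretch, read on the other strand, is also the Hspd1 promoter.
Hspe1, chr1:55088033-55088102, plus strand: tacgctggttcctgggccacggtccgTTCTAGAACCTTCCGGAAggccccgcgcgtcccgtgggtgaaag
Hspa1a, chr17:34972227-34972286, minus strand: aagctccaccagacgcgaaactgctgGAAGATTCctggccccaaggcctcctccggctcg
Hspb1, chr5:135887776-135887835, plus strand: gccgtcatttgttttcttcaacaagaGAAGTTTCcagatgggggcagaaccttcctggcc
Hsph1, chr5:149636336-149636395, minus strand: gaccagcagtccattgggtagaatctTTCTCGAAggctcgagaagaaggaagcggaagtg
The Hspe1 run covered 18 bases, 72 to 89 bases before the start, and the Hspa1a pair lay 97 to 104 bases before it. Hspa1b had the same 60 bases at chr17:34959309-34959368, and its whole window differed from that of Hspa1a at 4 of 300 positions. Counted from 1 at the 5′ end of the window, with the base of Hspa1a first, these were C44T, T47C, T249G and C276T. The genes lie close together on chromosome 17 and their transcripts are near-identical, so reads can be shared or lost between them, and the split between Hspa1a and Hspa1b is uncertain.

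Levels are given per 1000000 UMIs (CPM), summed over the cells of a class, which for 3′ UMI counts do not scale with transcript length. The 10 genes together gave 1784, 3956, 2774 and 4278 CPM in β-like cells, listed, here and throughout, as no cytokine, then IL-1β, then IFN-γ, then both. The sums were 2786, 3399, 2716 and 5051 CPM in α-like cells and 2821, 5587, 3859 and 8603 CPM in δ-like cells. In all 3 classes the library with both cytokines was highest, and IFN-γ alone gave the smallest distance from the untreated library. Ppy-led cells had 2801, 2913, 1950 and 3711 CPM. Endothelial-like cells, at 3589, 3160, 3822 and 4186 CPM, were above every endocrine class in the untreated library and within a narrow range across the libraries. With 1 library per condition, more RNA per cell and a change in which cells survived dissociation cannot be told apart.

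**Figure D1:**
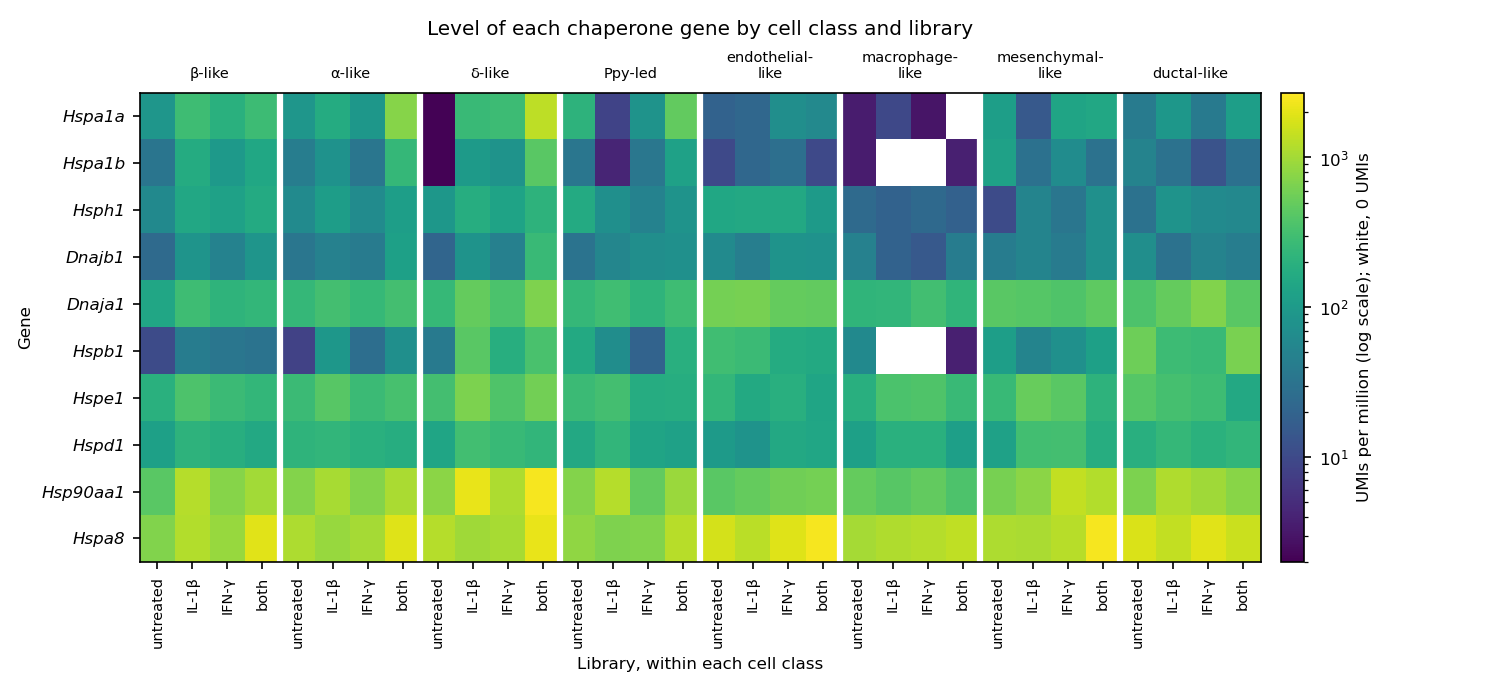
Level of each of the 10 chaperone genes in CPM (color, log scale, white for 0 UMIs) by cell class and library, with 1 library per condition. Within δ-like cells Hspa1a runs from 2.09 CPM without cytokine to 1316 CPM with both. Hspa1a is dark or white across the macrophage-like columns, where it is at most 9.56 CPM.

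Hspa1a (chr17:34969190-34972156, minus strand, GRCm38) and Hspa1b (chr17:34956436-34959238, minus strand) encode the inducible HSP70 proteins. In β-like cells Hspa1a was at 88.8, 285.2, 196.1 and 278.1 CPM. All treated libraries were above the untreated one, by 3.21-fold (95% counting interval 3.03 to 3.41), 2.21-fold (2.08 to 2.35) and 3.13-fold (2.96 to 3.31). Without the upper gene limit the last ratio was 4.78. Hspa1b was at 33.3, 169.5, 96.6 and 148.1 CPM, the same order of libraries with wider distances, 5.09-fold for IL-1β and 4.45-fold for both, or 7.51-fold and 6.85-fold without that limit.

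In α-like cells Hspa1a was at 88.2, 170.3, 90.6 and 726.2 CPM. Here the level with IFN-γ alone was close to that of the untreated library, at a ratio of 1.03 (0.784 to 1.36). The library with both cytokines stood apart from the other 3 at 8.23-fold (6.51 to 10.6). These ratios rest on few cells, since 86.7% of the untreated UMIs were in 2 of 85 α-like cells. With IFN-γ, 86.7% were in 7 of 279. In δ-like cells Hspa1a gave 1 UMI in 57 untreated cells, or 2.09 CPM, and 264.4, 278.1 and 1316 CPM in the treated libraries. With IFN-γ, 97.7% of the δ-like Hspa1a UMIs were in 5 of 172 cells. No other of the 10 genes spanned so wide a range in δ-like cells, but the ratio for both cytokines, 628, rests on the single untreated UMI and its interval runs from 112 to 24843. Hspa1b went the same way, from 1 UMI to 283. The low untreated level of these genes depended on the upper gene limit. Without it the δ-like ratios of Hspa1a were 8.78, 8.59 and 45.6, and those of Hspa1b 5.39, 3.99 and 24.2, still above 1 but far smaller. Ppy-led cells differed, with Hspa1a at 208.7, 8.52, 81.6 and 476.3 CPM, and 93.8% of the untreated UMIs in that class came from 1 of 29 cells. With IFN-γ, 3 of the 8 chaperone genes found in at least 10% of Ppy-led cells of both libraries, Hsph1, Hspb1 and Hspe1, were at least 1.5-fold lower than without cytokine, as were 19% of all genes tested there. Dnajb1 was at least 1.5-fold higher in the same comparison, as were 23.1% of all genes. With IL-1β, 2 of 8 chaperone genes detected in both libraries were higher and 2 lower, beside 33% and 26.4% of all genes. With both cytokines 3 of 9 were higher and 2 lower, beside 19.7% and 37.4% of all genes.

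Hsph1 (chr5:149614287-149636376, minus strand) encodes HSP110, an exchange factor that resets HSP70. It was at 61.3, 152.4, 122.5 and 162.8 CPM in β-like cells, 62.3, 111.0, 64.2 and 112.4 CPM in α-like cells and 90.1, 179.6, 131.5 and 212.8 CPM in δ-like cells. The libraries with IL-1β, alone or combined, were highest in each class, between 1.78 and 2.66 times the untreated level. In endothelial-like cells the values were 146.3, 153.6, 153.1 and 102.7 CPM, and in macrophage-like cells 24.0, 19.1, 23.8 and 18.8 CPM, with no treated library of either class clearly above the untreated one.

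Dnajb1 (chr8:83608193-83612653, plus strand) and Dnaja1 (chr4:40722150-40737149, plus strand) encode J-domain proteins that hand clients to HSP70. Dnajb1, a gene driven strongly by HSF1, was at 24.3, 83.8, 48.2 and 84.9 CPM in β-like cells and 20.9, 82.2, 46.2 and 262.6 CPM in δ-like cells. With both cytokines it was 3.49-fold (3.15 to 3.89) and 12.5-fold (6.66 to 26.6) above the untreated level in these classes. Dnaja1 was more abundant and moved less, at 141.1, 287.9, 214.7 and 235.0 CPM in β-like cells and 253.4, 498.4, 349.1 and 662.4 CPM in δ-like cells. In α-like cells Dnaja1 stayed between 239.9 and 315.5 CPM in every library.

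Hspb1 (chr5:135887919-135889563, plus strand) encodes HSP27, a small heat shock protein that holds unfolded clients without using ATP. Its level differed widely between the classes, at 10.3, 41.3, 34.3 and 31.0 CPM in β-like cells, 8.23, 90.4, 27.2 and 73.3 CPM in α-like cells and 37.7, 422.5, 184.1 and 339.5 CPM in δ-like cells. All treated libraries were above the untreated one in these 3 classes, and the largest ratios were with IL-1β, 10.98 (5.23 to 27.7) in α-like cells, from 7 untreated UMIs, and 11.2 (6.98 to 19.1) in δ-like cells. Outside the endocrine cells Hspb1 was not higher under a single cytokine than without one. Endothelial-like cells held 297.5, 270.6, 167.1 and 161.4 CPM, highest without cytokine, and ductal-like cells 549.0, 283.4, 268.0 and 628.6 CPM. Macrophage-like cells gave 18 UMIs without cytokine, none with IL-1β or IFN-γ and 1 with both, where 0 UMIs allowed up to 14.3 and 8.93 CPM (3 counts).

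Hspe1 (chr1:55088132-55091307, plus strand) and Hspd1 (chr1:55077835-55088243, minus strand) encode the small and large subunits of the mitochondrial chaperonin. Hspe1 was at 191.4, 358.3, 273.3 and 236.9 CPM in β-like cells and Hspd1 at 121.8, 211.6, 184.0 and 156.3 CPM. For both subunits IL-1β alone was the highest library and both cytokines the lowest of the treated ones, unlike the HSP70 genes. The ratios with both cytokines were 1.24 (1.18 to 1.29) for Hspe1 and 1.28 (1.21 to 1.36) for Hspd1. In α-like cells Hspd1 was at 215.2, 232.9, 195.0 and 177.8 CPM, with ratios to the untreated level between 0.826 and 1.08, and Hspe1 was 1.52-fold (1.32 to 1.76) higher with IL-1β. In δ-like cells Hspe1 was at 316.3, 648.9, 371.4 and 585.5 CPM, 2.05-fold (1.71 to 2.48) with IL-1β and 1.85-fold (1.53 to 2.25) with both. Hspd1 in δ-like cells was at 140.3, 308.6, 255.8 and 232.4 CPM, 2.20-fold (1.67 to 2.93), 1.82-fold (1.40 to 2.41) and 1.66-fold (1.24 to 2.24) in the treated libraries.

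Hsp90aa1 (chr12:110690605-110702728, minus strand) encodes the inducible cytosolic HSP90, which matures kinases and receptors. It was at 421.7, 1202, 726.9 and 1005 CPM in β-like cells, 709.1, 1043, 714.2 and 1068 CPM in α-like cells and 764.5, 2119, 1109 and 2414 CPM in δ-like cells. The libraries with IL-1β were highest in each class, and the ratio of 2.85 (2.77 to 2.93) in β-like cells came from 12246 UMIs against 8350. In macrophage-like cells Hsp90aa1 was at 497.9, 415.9, 473.0 and 360.0 CPM, highest without cytokine.

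Hspa8 (chr9:40800984-40810087, plus strand), the constitutive HSP70 of the cytosol, had a pattern of its own. It was at 690.1, 1164, 877.3 and 1939 CPM in β-like cells, 1111, 890.0, 1024 and 1890 CPM in α-like cells and 1194, 962.6, 1053 and 2150 CPM in δ-like cells. The library with both cytokines was highest in each of these classes, by 2.81-fold (2.75 to 2.87), 1.70-fold (1.58 to 1.83) and 1.80-fold (1.63 to 1.99), whereas each cytokine alone was below the untreated level in α-like and δ-like cells. The interval of the δ-like ratio for IL-1β ran from 0.722 to 0.9004. Endothelial-like cells had 1682.5, 1287, 1925 and 2415.5 CPM, also highest with both.

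**Figure D2:**
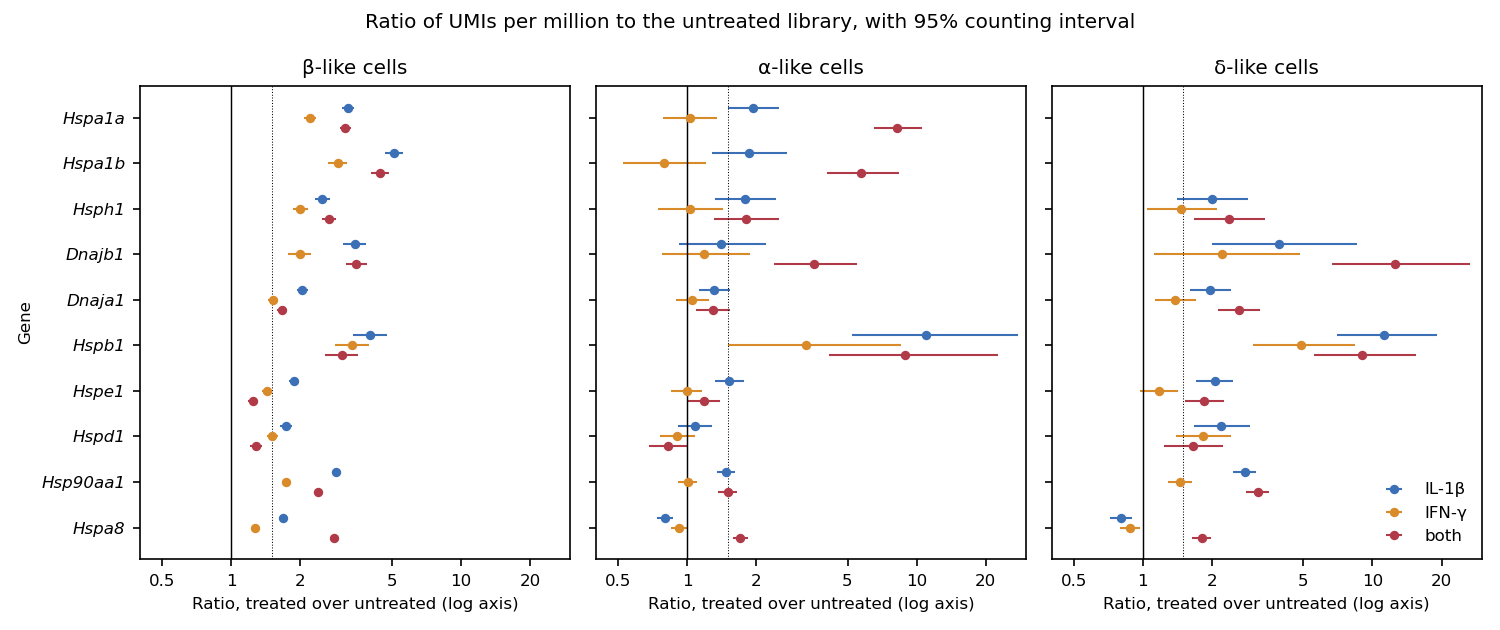
Ratio of CPM in each treated library to the untreated library (log axis) for the 10 genes in β-like, α-like and δ-like cells, with bars for the 95% counting interval, a solid line at 1 and a dotted line at 1.5. Hspa8 lies well to the right of 1 only with both cytokines in α-like and δ-like cells; Hspa1a and Hspa1b are not drawn for δ-like cells, whose untreated level is 1 UMI each.

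Each gene was read against all genes detected in at least 10% of the cells of a class in either library. A ratio of 1.5-fold was the size called higher or lower. The shares of all genes include those detected in 1 library or class alone, whereas the counts of chaperone genes leave these out. In β-like cells with IL-1β, 36.5% of the 8467 genes tested were at least 1.5-fold higher, as were all 8 chaperone genes that reached this detection in both libraries. With IFN-γ the background was 18.5% and 6 of the 8 were higher, and with both cytokines it was 21% and again 6 of 8. Hspa1b was at least 1.5-fold higher in all 3 comparisons, but it reached the detection in the treated libraries alone, which favors a higher call, and is left out of these counts. Hspb1 was in too few cells to be tested. The median ratio over all 10 genes, Hspa1b and Hspb1 included, was 2.67, 1.85 and 2.73, beside 1.30, 1.24 and 1.04 for all genes. These high backgrounds stood beside a lower hormone content: hormone transcripts fell from a median of 41.1% of the UMIs of an untreated β-like cell to 20.5%, 27.3% and 31.7% in the treated libraries, which moves every other gene up. With hormone genes left out of the totals the medians of all genes were 0.962, 1.003 and 0.905, and the share of genes called higher was 15%, 5.17% and 14.4%. On that scale 5, 3 and 5 of the same 8 chaperone genes were called higher, and Hspa1a, Hsph1 and Dnajb1 were among them in all 3 comparisons.

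In α-like cells the background was 15.9%, 15.3% and 16.8% in the treated libraries. Of the 7 chaperone genes detected in both libraries, 2, 0 and 4 were called higher, or 1, 0 and 3 with hormone genes left out of the totals. Hspa1a and Hspa1b with IL-1β, and these and Hspb1 with both cytokines, reached the detection in the treated library alone, which favors a higher call, and are left out. With IFN-γ these 3 genes were in too few cells to be tested. Median ratios over the 10 genes, those left out or untested included, were 1.497, 1.02 and 1.75 beside 0.933, 1.05 and 0.874 for all genes. In δ-like cells the background was 18.7%, 11.7% and 18.9%, and 7, 3 and 8 of the 8 chaperone genes detected in both libraries were called higher. The δ-like counts were the same with hormone genes left out of the totals. Hspa1a and Hspa1b were left out in the same way with IL-1β and with both cytokines. In δ-like cells the median over the 10 genes, those left out or untested included, was 2.49, 1.64 and 2.89. For all genes it was 0.956, 0.951 and 0.833. Medians that include genes left out of the counts are descriptions only. None of the 7 or 8 chaperone genes detected in both libraries was called lower in any of these 9 comparisons. Of all genes tested, 9.35%, 1.19% and 17.5% were lower in β-like cells, 24%, 8.82% and 30.1% in α-like cells, and 26%, 17.2% and 36.9% in δ-like cells. The 3 comparisons in each class share the same untreated library.

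Within the library that had received both cytokines, cell classes could be compared with handling held alike. Hspa1a was 4.73-fold (4.39 to 5.09) higher in δ-like than in β-like cells and 2.61-fold (2.44 to 2.80) higher in α-like than in β-like cells. Hspb1 differed more, 10.9-fold (9.31 to 12.8) between δ-like and β-like cells, while Hspa8 was alike in the classes, at 1.11-fold (1.05 to 1.17) for δ-like and 0.975-fold (0.937 to 1.01) for α-like cells. Of the 9 chaperone genes detected in both classes, 6 were at least 1.5-fold higher in δ-like than in β-like cells, where 34.7% of all genes tested were. In α-like cells it was 2 of 9, where 27.5% of all genes were. Hspb1 is left out of both counts, since too few β-like cells held it. In the untreated library δ-like cells were instead the lowest for Hspa1a, with 1 UMI in δ-like cells and 88.8 and 88.2 CPM in β-like and α-like cells, whose intervals overlap. Without the upper gene limit the untreated δ-like over β-like ratio of Hspa1a was 0.509 in place of 0.0236.

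Macrophage-like cells held almost no Hspa1a or Hspa1b. Hspa1a was at 3.43, 9.56, 2.98 and 0 CPM, which was 1, 2, 1 and 0 UMIs, and the last allowed up to 11.3 CPM (3 counts). RNA set free from broken cells would by itself give 1.14 to 2.39 CPM there, judged from insulin transcripts, which in macrophage-like cells stood at 0.456% to 1.30% of their level in the whole library. The few UMIs can therefore not be told from that background. Of the chaperone genes detected in both macrophage-like and β-like cells, 3 of 7, 2 of 6 and 3 of 7 in the treated libraries were at least 1.5-fold lower in macrophage-like cells, where 38.4%, 37.7% and 33.6% of all genes were. They were Hsph1 and Hsp90aa1 each time, and Dnajb1 with IL-1β and with both cytokines. Hspa1a, Hspa1b and, with IFN-γ, Dnajb1 reached the detection in β-like cells alone, which favors a lower call, and are left out. Without cytokine 1 of 7, Hsph1, was lower, where 32.2% of all genes were. In that library 2 of the 7 were higher, where 41.2% of all genes were, Dnajb1 at 48.1 against 24.3 CPM and Dnaja1 at 223.2 against 141.1 CPM. Hspe1 and Hspd1 were close in the classes, with macrophage-like over β-like ratios from 0.987 to 1.34 and from 0.744 to 1.05.

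Endothelial-like cells had a different make-up. Hspa1a was low, at 19.5, 21.9, 69.6 and 58.7 CPM from 4, 3, 20 and 12 UMIs, though above the 1.34 to 2.43 CPM that free RNA would give. Dnaja1, at 604.7, 621.7, 487.3 and 484.1 CPM, and Hspb1 were at least 2.06-fold above β-like cells in every library. Genes at least 1.5-fold higher than in β-like cells were 4 of 8, 1 of 7, 3 of 9 and 1 of 8 of those detected in both classes, beside a background of 56.7%, 44.1%, 44.3% and 48.6%. Genes at least 1.5-fold lower were 1, 4, 2 and 4 of the same, beside 22.9%, 27.4%, 28.3% and 24.9%. Dnaja1 was as abundant in ductal-like cells with IFN-γ and in δ-like cells with both cytokines, at 686.7 (585.6 to 800.2) and 662.4 (601.9 to 727.4) CPM, intervals that overlap that of untreated endothelial-like cells (503.0 to 721.0). Mesenchymal-like cells, 9 to 19 per library, held Hspa1a at 113.4, 14.8, 134.9 and 150.0 CPM from at most 20 UMIs, and with IFN-γ 65% of the UMIs were in 1 of 18 cells. Ductal-like cells held it at 39.9, 91.1, 37.7 and 114.3 CPM from at most 9 UMIs, and with both cytokines 75% of them were in 1 of 9 cells. Acinar-like cells gave 1 UMI in the 4 libraries together.

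Hspa1a transcripts were not spread evenly over the cells of a class. At a level of at least 10 Hspa1a UMIs per 10000, there were 20 of 1180 untreated β-like cells (1.69%, exact binomial 95% interval 1.04 to 2.61). In the treated libraries there were 109 of 1200 (9.08%, 7.52 to 10.9), 80 of 1310 (6.11%, 4.87 to 7.54) and 86 of 1290 (6.67%, 5.37 to 8.17), all above the untreated share and with intervals that overlap one another. These cells held 80.3%, 88.0%, 89.9% and 57.4% of all Hspa1a UMIs of their class, so the library with both cytokines had the largest part outside them. The limit is a point on a continuous scale, with 5, 7, 9 and 24 cells between 8 and 10 and 1, 8, 8 and 11 cells between 10 and 12. In α-like cells 2, 18, 7 and 46 passed it, and in δ-like cells 0, 10, 5 and 39, where 0 of 57 untreated cells allowed a share of up to 5.26%. With both cytokines that was 29.1% of α-like cells (22.2 to 36.9) and 39.4% of δ-like cells (29.7 to 49.7), against 6.67% of β-like cells (5.37 to 8.17). No endothelial-like or macrophage-like cell reached it in any library, which allowed shares of up to 6.67% to 13.6% and 7.32% to 10.7%.

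**Figure D3:**
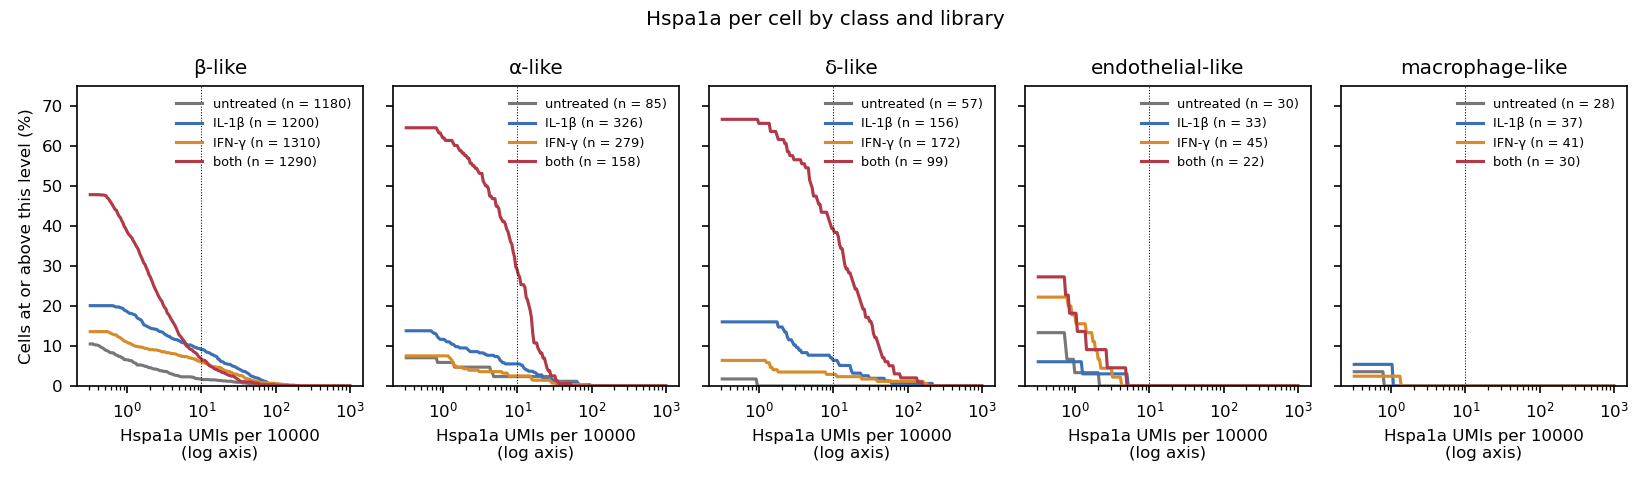
Share of cells (%) at or above each Hspa1a level, in UMIs per 10000 UMIs of the cell (log axis), by class and library with the number of cells in the legends; the dotted line marks 10. With both cytokines the curves of α-like and δ-like cells reach 29.1% and 39.4% at the dotted line, while in β-like cells the curves of the treated libraries lie between 6.11% and 9.08% there.

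Since a share of cells with a UMI depends on depth, cells were also thinned to 4000 UMIs. Hspa1a was then found in 6.01% of untreated β-like cells (4.69 to 7.55) and in 15.3%, 10.4% and 32.8% (30.2 to 35.4) in the treated libraries. Before thinning, 1055 of 1180, 959 of 1200, 1132 of 1310 and 673 of 1290 β-like cells had none. After thinning 60.1% of α-like cells (51.9 to 68.0) and 67.4% of δ-like cells (56.5 to 77.2) with both cytokines held Hspa1a. In the untreated library it was 5.19% of α-like cells, 4 of 77, and 1 of 52 δ-like cells. Macrophage-like cells at the same depth held it in 0 of 25, 2 of 28, 0 of 38 and 0 of 28, which allow shares of up to 12%, 23.5%, 7.89% and 10.7%, as 3 counts where none was found and otherwise as the bound of the exact interval. The share in β-like cells with both cytokines was above all of these, whereas those of the other libraries were not above the bound of their own macrophage-like cells except with IFN-γ. Of the β-like cells with both cytokines, then, many held Hspa1a at a level below 10 UMIs per 10000.

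The same thinned cells gave the spread of each gene, as the variance over the mean, which is 1 where counts vary by sampling alone. For Hspa1a in β-like cells it was 34.4, 21.5, 20.7 and 12.99, and for Hspa1b 15.2, 12.5, 9.18 and 5.35. Both were narrowest with both cytokines. The values depended on depth: at 2000 UMIs per cell they were 16.1, 12.3, 13.6 and 6.95 for Hspa1a and 6.18, 6.49, 5.52 and 3.43 for Hspa1b, so that Hspa1a was widest in the untreated library at either depth and Hspa1b only at 4000 UMIs. Hspb1 was at 6.79, 7.43, 8.42 and 8.46, and the untreated value came to 10.5 with another random draw. Hspd1 was the most even of the 10 genes in every library, at 1.12, 1.39, 1.26 and 1.33, and Hspa8 stayed between 2.25 and 2.84, though its untreated value was 1.53 at 2000 UMIs, and that of Hsp90aa1 1.46. A value of at least 2 was found in 0.882%, 1.65%, 1.07% and 1.75% of the genes tested, and in 6 of 8, 9 of 10, 7 of 9 and 6 of 9 of the chaperone genes tested. In α-like cells with both cytokines Hspa1a came to 4.81, lower than the 25.9, 10.1 and 18.7 of the other libraries of that class. In δ-like cells it came to 13.5, 54.1 and 14.0 in the treated libraries, so both cytokines were not the narrowest there.

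**Figure D4:**
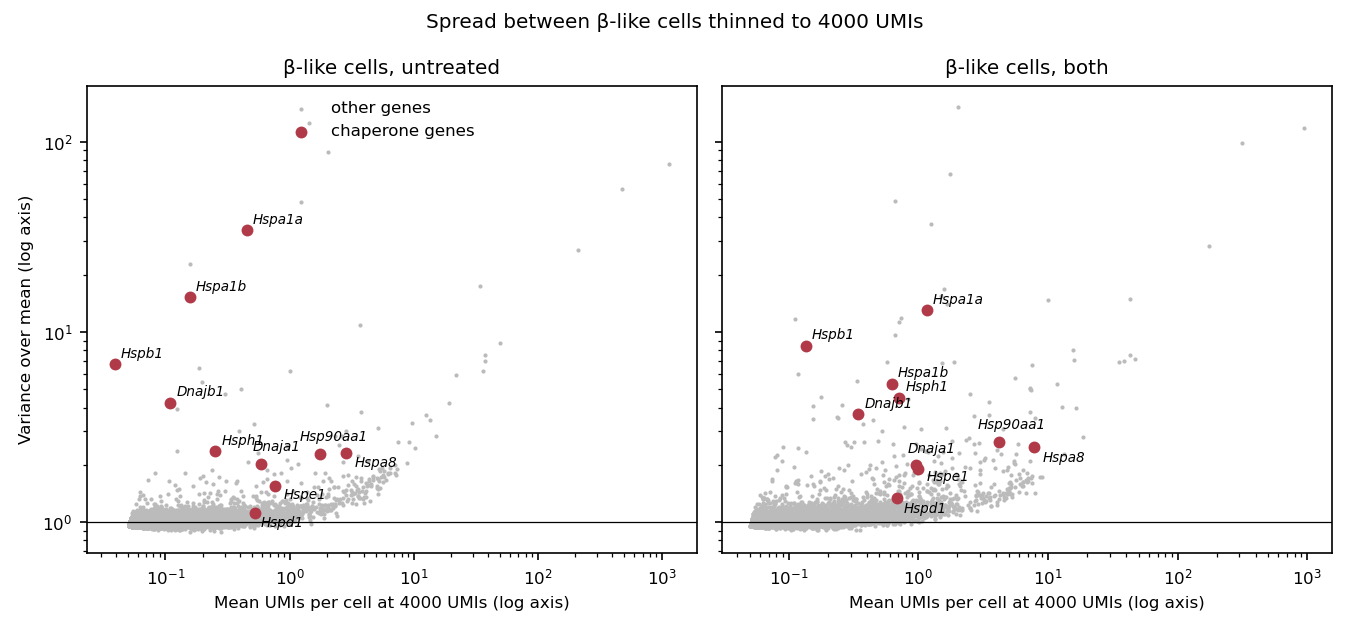
Variance over mean against mean UMIs per cell for genes in β-like cells thinned to 4000 UMIs (both axes log), without cytokine and with both cytokines; red points are the 10 chaperone genes and the line at 1 is sampling alone. Hspa1a stands at 34.4 without cytokine and 12.99 with both, whereas Hspd1 lies near the line in each panel.

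Chaperone transcripts were often found in the same cells. Among thinned β-like cells with Hspa1a, 45.6%, 65.5%, 68.2% and 49.8% also held Hspa1b, and among those without it 1.32%, 3.70%, 2.15% and 14.8%. Reads of that pair can be shared, as said above. Dnajb1, whose sequence is distinct, was in 17.6%, 49.1%, 38.8% and 33.5% of cells with Hspa1a and in 6.39%, 10.6%, 7.88% and 13.5% of cells without it. Hspb1 was in 8.82%, 24.6%, 23.3% and 9.47% against 0.470%, 2.22%, 1.61% and 1.78%. Hspd1 differed little between the cells, with 35.3%, 59.1%, 57.4% and 45.9% against 39.0%, 52.1%, 48.7% and 46.3%. In δ-like cells with both cytokines, Dnajb1 was in 36 of 58 cells with Hspa1a and in 8 of 28 without it.

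Pearson correlations of ln(1 + thinned UMIs) with Hspa1a, taken over 1118 to 1257 β-like cells in each library and averaged over the 4 libraries, ranked the genes from Hspa1b (0.77) through Dnajb1 (0.47), Hsph1 (0.43), Hspb1 (0.39), Dnaja1 (0.33), Hsp90aa1 (0.28), Hspe1 (0.25) and Hspa8 (0.21) to Hspd1 (0.08). Cells of 1 library share its handling and, after thinning, a depth, so these values describe and do not test. For all 5454 genes found in 5% or more of the cells of every library the median was -0.01 and the 99th percentile 0.10. In α-like and δ-like cells, over the 3 and 2 libraries with enough cells holding Hspa1a, Dnajb1 had means of 0.37 and 0.46 and Hspd1 of -0.01 and 0.14. The order of the genes between them differed, with Hsp90aa1 at 0.32 and 0.45 and Hsph1 at 0.27 and 0.44.

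**Figure D5:**
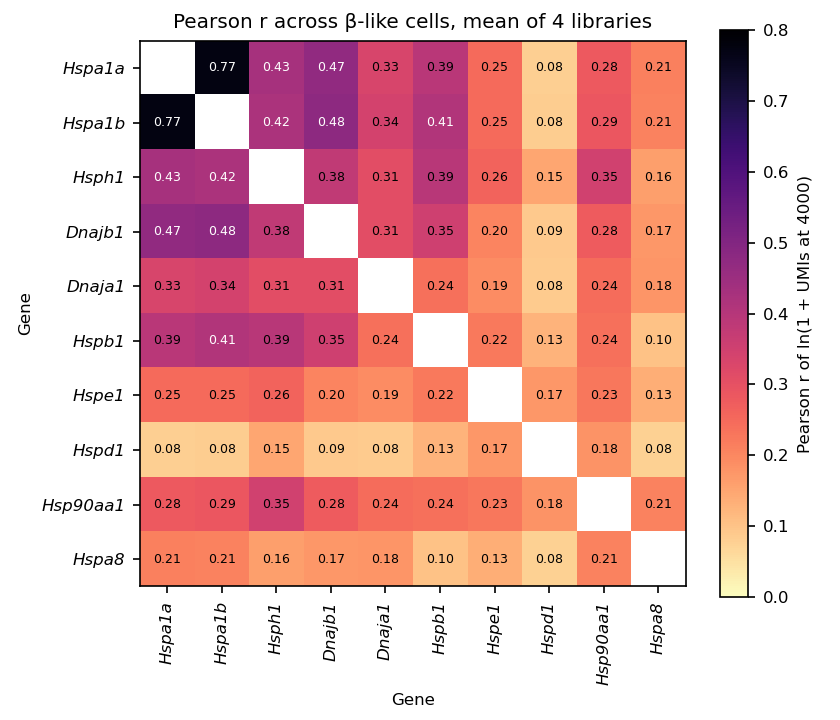
Pearson r between the 10 chaperone genes across β-like cells thinned to 4000 UMIs, on ln(1 + UMIs), as the mean of 4 libraries (color and printed value). Hspa1a and Hspa1b give the highest value at 0.77, and Hspd1 has values of 0.08 to 0.18 with the other 9 genes.

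Outside the 10 genes, those with the highest mean correlation with Hspa1a included Hsp90ab1 (0.26), the constitutive cytosolic HSP90, Ubb (0.25), a ubiquitin gene, Txnip (0.23), an inhibitor of thioredoxin, and Jun (0.22), a subunit of AP-1. Rgs2 (0.18), a brake on G protein signaling, Swt1 (0.15), Cacybp (0.15), Tpt1 (0.14) and Rsrp1 (0.14) were also among them. Hsp90ab1 and Ubb belong to the list of further HSF targets and Jun to that of immediate early genes, described below for their levels. In the library with both cytokines, 42.6% of thinned β-like cells at or above 10 Hspa1a UMIs per 10000 held Nos2, the inducible nitric oxide synthase, and 63.1% of cells with no Hspa1a did. For the interferon-induced GTPase Gbp2 the shares were 66.7% and 91.5%.

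In β-like cells, differences between libraries were also found in cells without Hspa1a. Among thinned β-like cells without a Hspa1a UMI, Hsp90aa1 was still 2.55-fold (2.41 to 2.69), 1.58-fold (1.49 to 1.67) and 2.25-fold (2.12 to 2.39) above the untreated level. In the same cells Hspa8 was 1.61-fold, 1.21-fold and 2.76-fold (2.64 to 2.88) higher. The Hspa8 ratio with both cytokines was thus nearly the one of the whole class, 2.81. Over all genes the median ratio of the whole class was 1.30, 1.24 and 1.04, so Hspa8 with IFN-γ was not above it. With hormone genes left out of the totals, the ratios of Hspa8 in the whole class were 1.25, 1.03 and 2.44. In the 28 δ-like cells without Hspa1a in the library with both cytokines, Hspa8 was at 1.10-fold (0.895 to 1.35) the untreated level and Hsp90aa1 at 1.81-fold (1.44 to 2.27). Hsph1 in those cells was at 0.959-fold (0.398 to 2.17), against 2.36-fold in the class. In α-like cells without Hspa1a, with both cytokines, Hsph1 was at 0.940-fold (0.386 to 2.23), Dnaja1 at 0.994-fold (0.666 to 1.48) and Hsp90aa1 at 1.20-fold (0.977 to 1.48), intervals that include 1, whereas Hspa8 was at 1.56-fold (1.34 to 1.82) and Hspe1 at 1.74-fold (1.24 to 2.47).

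Further genes of the chaperone network were read from fixed lists. Of 20 further HSF targets and co-chaperones, 16 passed the detection filter in β-like cells. There 8, 3 and 8 were called higher in the treated libraries, where 36.5%, 18.5% and 21% of all genes were, so the count with IFN-γ was near the background. The median ratios of the list were 1.44, 1.38 and 1.54 beside the medians of 1.30, 1.24 and 1.04 for all genes. Bag3, which links HSP70 to autophagy, was at 15.6, 67.2, 28.2 and 46.5 CPM and 4.32-fold (3.77 to 4.96) with IL-1β. Ptges3, the HSP90 partner p23, was at 107.5, 241.8, 176.7 and 184.7 CPM. Fkbp4, another HSP90 partner, was at 138.8, 86.8, 128.0 and 99.3 CPM and called lower with IL-1β, as were 9.35% of all genes. None of the regulators Hsf1, Hsf2 and Hsbp1 passed 1.5-fold in β-like cells, and Hsf1 itself was at 15.4, 16.9, 17.4 and 17.4 CPM.

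Chaperones of other compartments were read in the same way, beside the same 36.5%, 18.5% and 21% of all genes called higher. Of 9 endoplasmic reticulum chaperones in β-like cells, 2, 0 and 2 were called higher at median ratios of 1.45, 1.34 and 0.920, with Hspa5 (BiP) at 885.3, 1681, 1302 and 1444 CPM and Dnajb9 at 212.0, 556.8, 317.6 and 319.2 CPM, and with both cytokines Dnajc3 and Pdia4 were called lower, as were 17.5% of all genes. Pdia4 was at 135.2, 160.6, 154.6 and 88.8 CPM, 0.657-fold (0.615 to 0.701) with both. Of 5 further mitochondrial genes, 3, 1 and 3 were called higher at medians of 1.64, 1.41 and 1.78. Hspa9, the mitochondrial HSP70, was at 137.5, 358.3, 235.4 and 290.7 CPM, and the protease Lonp1 at 43.7, 111.7, 62.5 and 109.1 CPM, both further from the untreated level with both cytokines than the chaperonin genes. Of the 7 subunits tested of the cytosolic chaperonin TRiC, 5, 0 and 3 were called higher at medians of 1.60, 1.22 and 1.34, with Tcp1 at 97.2, 166.8, 118.1 and 160.5 CPM.

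Lists of immediate early and cytokine genes were included to show what else differed between the libraries. Of the 8 immediate early genes detected in both libraries, 6, 4 and 4 were called higher in β-like cells, at medians of 1.81, 1.497 and 1.19 and against the same background. Fos and Egr1 were called lower with both cytokines, as were 17.5% of all genes. Fosb with IFN-γ and Atf3 with both cytokines reached the detection in the treated library alone and are left out. Jun was at 129.4, 207.6, 232.3 and 340.1 CPM and Fos at 34.3, 44.9, 62.8 and 21.5 CPM, so these partners in AP-1 went apart in the library with both cytokines. Atf3, a stress-induced repressor, was at 0.808, 7.46, 3.502 and 30.9 CPM. Immediate early genes also mark dissociation of tissue, and their part in the chaperone levels was not tested. The cytokine response genes Nos2, Gbp2, Gbp5, Icam1, Cxcl10, Defb1 and Irf1 were at least 1.5-fold higher with IL-1β and with both cytokines. Most of them were in under 10% of untreated cells, which favors a higher call.

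Of the 16 further HSF targets detected in both libraries, 2, 0 and 4 were called higher in α-like cells, where 15.9%, 15.3% and 16.8% of all genes were. In δ-like cells 3, 0 and 6 of 16 were, where 18.7%, 11.7% and 18.9% of all genes were. The median ratios of these genes were 0.930, 0.995 and 1.28 in α-like cells and 0.952, 0.861 and 1.37 in δ-like cells. Bag3 was at 77.5, 35.4, 55.0 and 57.3 CPM in δ-like cells, highest without cytokine, unlike Dnajb1 and Hspa1a of the same cells. Hsf1 was at 14.7, 15.2, 16.7 and 39.2 CPM in δ-like cells, and called higher with both cytokines. In α-like cells with both it was also called higher, at 1.86-fold (0.951 to 3.93) from 37 and 12 UMIs, an interval that includes 1. TRiC subunits called higher were 3, 0 and 0 of 7 in δ-like cells and none in α-like cells. Sdf2l1, an endoplasmic reticulum chaperone, was 0.323-fold (0.202 to 0.503) the untreated level in δ-like cells with both cytokines. Lower calls among the 9 endoplasmic reticulum genes were 1, 1 and 3 in α-like cells, where 24%, 8.82% and 30.1% of all genes were lower. They were 2, 1 and 4 in δ-like cells, where 26%, 17.2% and 36.9% were. Higher calls among the 9 were 1, 0 and 1 in each class, and the gene was Dnajb9 each time. Fkbp4 was called lower with both cytokines in each of these classes, at 0.540-fold (0.425 to 0.687) in α-like cells and 0.415-fold (0.297 to 0.573) in δ-like cells.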

How the data were processed

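Single-cell libraries of mouse islets were made by the authors with a 10x Genomics 3′ kit, version 2 per the labels and version 3 per the study's methods. The deposited matrices hold raw UMI counts per gene and barcode, and the submitters' processing notes name Cell Ranger and mm10; the matrix headers give software version 3.0.0, and name no annotation. Positions of genes were taken from GENCODE M21 by identifier (30934 of 31053 found) and promoter sequences from RefSeq. The 10 genes, the lists and the thresholds were chosen with earlier results of these data known.

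Computation used scipy 1.17.1, numpy 2.4.6, pandas 2.3.3 and matplotlib 3.10.9 under Python 3.11.15. No doublet caller was run. Levels are summed UMIs per 1000000 with exact Poisson intervals, ratios have exact conditional binomial intervals, and shares have exact Clopper-Pearson intervals, all at 95%. A level or share of 0 was given the floor of 3 counts in that class and library. Thinning drew 4000 UMIs per cell, or 2000 as an alternative, and left out shallower cells. Genes were named as the 10 members, listed genes past 1.5-fold in a comparison or otherwise abundant, and the 10 other genes with the highest mean correlation with Hspa1a. One gene that this rule names is not reported here. Hsf1 in β-like cells was named after its values were seen. The ratio step was checked on simulated counts. Alternatives changed the gene limit, the mitochondrial limit, the totals, the weighting of cells, the class rule, depth, thresholds, thinning, and the split of Hspa1a and Hspa1b.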

Additional observations from a re-analysis of the deposited data

Results flagged for a closer look

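Among Ppy-led cells, Hspa1a, Hsph1 and Hspb1 were lower with IFN-γ than without cytokine while β-like cells had more of them, and the difference between the classes was not tested. Of all genes tested in Ppy-led cells, 19% were at least 1.5-fold lower in that comparison. Hspa1a was at 81.6 CPM with IFN-γ and 209 CPM without it in Ppy-led cells, from 45 and 80 UMIs, a ratio of 0.391 (0.265 to 0.570), against 2.21 in β-like cells. In Ppy-led cells it reached the detection in the untreated library alone, which favors a lower call, so its ratio is given as a description only. Hsph1 had a ratio of 0.303 (0.185 to 0.483) in Ppy-led cells, from 27 and 62 UMIs, against 1.9996 in β-like cells. Hspb1 had a ratio of 0.125 (0.0595 to 0.240), from 11 and 61 UMIs, against 3.35 in β-like, 3.31 in α-like and 4.88 in δ-like cells. The untreated library held 29 Ppy-led cells, and 1 of them carried 93.8% of the Hspa1a UMIs of that class.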

How the results depend on the processing

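With 1 library per condition there was no replicate to leave out, all differences lack a replicate check, and culture and library cannot be told apart from cytokine. No paired analysis was possible because each group holds a single library. Depth limits Hspa1a in macrophage-like cells and in untreated δ-like cells, where it rests on at most 2 UMIs.

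Among the values recomputed under alternatives, 802 stayed within the counting interval or within 1.5 times a count, 207 moved and 1 reversed. The limit of 20% mitochondrial UMIs moved none of its 107 values. Thinning to 2000 UMIs moved 97 values and reversed 1, while 119 stayed. Leaving hormone genes out of the totals moved 36, while 71 stayed. Causes of the changes were not tested. The Hspa1a ratio in β-like cells was 4.74, 3.12 and 4.78 for IL-1β, IFN-γ and both when no upper gene limit was set, and 2.37, 1.78 and 2.72 with hormone genes left out of the totals. Summing Hspa1a and Hspa1b gave 3.72, 2.40 and 3.49. As a mean over cells the β-like ratio was 2.80 with IL-1β and 2.17 with both. With IFN-γ it was 2.43 when the class came from the leading hormone, and with both it was 2.64 without the deepest 10% of cells and 2.66 at 2000 UMIs. In α-like cells the Hspa1a ratio with IL-1β was 1.38 as a mean over cells and 2.55 at 2000 UMIs, and with both cytokines it was 10.9 without the upper gene limit, 5.85 as a mean over cells and 11.8 at 2000 UMIs. The Hspa1b ratio in α-like cells with IL-1β reversed from 1.86 to 0.724 at 2000 UMIs. With both cytokines, the α-like over β-like ratio of Hspa1a was 2.11 without hormone genes, 2.36 as a mean over cells and 2.27 with Hspa1b added, and the δ-like over β-like ratio was 3.52 without hormone genes and 4.09 with Hspa1b added.

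Counting also chaperone genes detected in 1 library alone, of those called higher in β-like cells with IFN-γ, 7 became 4 without hormone genes, 3 at 2000 UMIs and 2 at a threshold of 2-fold. In α-like cells with IL-1β, 4 became 2 as a mean over cells, 7 by the leading hormone, 2 at 2000 UMIs and 0 at 2-fold. In α-like cells with IFN-γ, 0 became 1 by the leading hormone and 1 with genes in at least 5% of cells, and with both cytokines 7 became 4 at 2-fold. In δ-like cells with IFN-γ, 3 became 1 without the upper gene limit and 5 with genes in at least 5% of cells. At 2-fold the share of all genes called higher in β-like cells was 15.8%, 3.86% and 10.6%. Without hormone genes it was 15%, 5.17% and 14.4%. For the other changed counts of this paragraph no share of all genes was computed, so they stand against no background. Genes detected in 1 library alone also favor a higher call, so these counts are descriptions only. At 2000 UMIs, 4.29% of untreated β-like cells, 8.54% with IFN-γ and 23.5% with both held Hspa1a.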

Other observations

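Cells with a mixture of hormones, which are in no class, held more Hspa1a than β-like cells in every library but that with IL-1β. Their levels were 295.5, 228.9, 593.0 and 985.0 CPM over 31, 130, 94 and 88 cells. Hspb1 in these cells was at 14.2, 157.8, 199.3 and 261.1 CPM, between the levels of β-like and δ-like cells with IL-1β and with both cytokines. Whether they are doublets was not tested.

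Barcodes removed for more than 12% mitochondrial UMIs kept the order of libraries seen in β-like cells for Hspa1b and Hsp90aa1. Hspa1a was at 51.3, 269.7, 112.4 and 387.6 CPM in 1120, 742, 1226 and 447 such barcodes, Hspa1b at 17.4, 182.3, 63.8 and 159.3 CPM, and Hsp90aa1 at 216.5, 902.1, 480.8 and 686.0 CPM.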
